A study of Homo sapiens with 29 samples.

Results

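The interleukin-1 system was followed through 10 genes among the 28266 gene rows of the count table: the ligands IL1A, IL1B, IL18 and IL33, the receptor genes IL1R1, IL1RAP and IL1RL1, the decoy receptor IL1R2, the antagonist IL1RN and the protease CASP1. They were taken by name, and each had a row. The cells were IMR90 ER:RAS, human lung fibroblasts (IMR90) transduced with a retrovirus that carries an estrogen receptor fusion of oncogenic RAS. All groups carry this fusion, which 4-hydroxytamoxifen (4OHT) switches on to drive oncogene-induced senescence. The 3 groups had 6 libraries each, all labelled day 7: DMSO_siNT (solvent and non-targeting siRNA), 4OHT_siNT (4OHT and non-targeting siRNA) and 4OHT_siSMARCA4 (4OHT and siRNA against SMARCA4, the ATPase of the SWI/SNF chromatin remodelling complex). Each group used siRNAs numbered 2 and 4. The non-targeting and the SMARCA4 siRNAs of the same number are different siRNAs that share only the label.

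Interleukin-1 alpha and beta are the agonists of the type 1 receptor, which signals together with the accessory protein encoded by IL1RAP. The antagonist occupies that receptor without signalling, and the type 2 receptor binds the ligand as a decoy. Interleukin-1 beta and interleukin-18 are made as precursors that caspase-1 cleaves inside inflammasomes, whereas interleukin-33 acts through the receptor encoded by IL1RL1. In senescent fibroblasts, cell-surface interleukin-1 alpha is known as an upstream driver of the secretory phenotype through NF-kappaB and C/EBP factors.

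Set names in the labels end in V or VM, and their meaning is not stated. Every 4OHT_siNT library analysed was of a VM set, DMSO_siNT was split evenly with 3 of each, and in 4OHT_siSMARCA4 there were 3 of V sets, 2 of VM sets and 1 that carried no set label. Levels are CPM, the usual scaling of counts to library size, after TMM normalisation. Libraries held 9657309 to 18039313 counts. SMARCA4 lay between 274.9 and 329.9 CPM in 4OHT_siNT and between 70.4 and 141 CPM in 4OHT_siSMARCA4, and was 92.7 to 141 CPM in the V and 70.4 to 87.0 CPM in the VM knockdown libraries. The library DMSO_siNT 4-2V stood apart, with 29.5 CPM of ESR1 and 436 CPM of HRAS, the genes the fusion is built from, against medians of 1101 and 2323 CPM in its group. All 10 fibroblast markers examined were above 10 CPM in every group mean, and in 4OHT_siSMARCA4 over 4OHT_siNT 7 of them were lower and 0 higher by edgeR (8 and 0 at an unadjusted p under 0.05, and 8 and 0 by DESeq2). Of all genes tested there, 5.65% were lower and 4.99% higher by edgeR. From DMSO_siNT, 1 was higher and 5 lower in 4OHT_siNT, with DCN at −5.17 and LUM at −1.99 (log2), where 23.9% of all genes were higher and 28.9% lower. In 4OHT_siSMARCA4 1 was higher and 8 lower, where 23.3% of all genes were higher and 27.3% lower. The part of these shifts in the results was not tested. The 9 myeloid markers, from cells that make interleukin-1 in blood, summed to 0.404 to 1.81 CPM per library over all groups, and none of them passed the filter on low counts. The 5 lymphoid markers summed to at most 0.0692 CPM. Epithelial markers (6 genes) summed to 103 to 144 CPM in DMSO_siNT and 34.1 to 57.0 CPM in 4OHT_siSMARCA4, with 62.4 to 78.9 CPM in 4OHT_siNT. Endothelial markers (4 genes) summed to 1.35 to 2.39 CPM in DMSO_siNT, 4.29 to 5.53 CPM in 4OHT_siNT and 1.30 to 5.78 CPM in 4OHT_siSMARCA4, and VWF, the 1 of them tested, rose with 4OHT (1.23, edgeR adjusted p = 0.00121). The part of these in the results was not tested either.

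IL1A and IL1B lie side by side on chromosome 2. The sequences just upstream of their start sites are shown because these genes moved together with 4OHT. They are from RefSeq on GRCh38.p14, minus strand, written 5′ to 3′ and ending at the annotated start of the gene. IL1A covers chr2:112784494-112784743 and IL1B covers chr2:112836817-112837029. The capitals mark an AP-1 match (TGANTCA) in IL1A and C/EBP matches (TTGNNNAA) in IL1B:
IL1A: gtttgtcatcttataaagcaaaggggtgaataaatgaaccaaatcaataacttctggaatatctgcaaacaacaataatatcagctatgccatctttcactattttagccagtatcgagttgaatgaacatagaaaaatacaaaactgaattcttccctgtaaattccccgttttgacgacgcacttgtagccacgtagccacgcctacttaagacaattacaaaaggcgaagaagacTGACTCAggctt
IL1B: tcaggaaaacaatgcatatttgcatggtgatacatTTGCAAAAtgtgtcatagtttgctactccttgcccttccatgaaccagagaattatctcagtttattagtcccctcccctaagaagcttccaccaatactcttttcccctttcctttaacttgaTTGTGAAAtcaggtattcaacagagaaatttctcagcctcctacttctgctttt
The AP-1 match began 12 bases upstream of the IL1A start. The C/EBP matches began 215 and 91 bases upstream of the RefSeq start of IL1B. On both strands, an AP-1 match was present in 6.57% of 35116 promoters over the same 250 bases, a C/EBP match in 30.2% and a match to the NF-kappaB consensus in 9.96%. Neither of these windows held a match to the NF-kappaB consensus. RefSeq promoters were matched for 8 of the 10 genes.

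The agonist genes had the largest changes of the 10 genes with 4OHT. IL1A (chr2:112773925-112784493, minus strand, 7 exons in its canonical transcript) had 0 to 3 counts in each DMSO_siNT library. In 4OHT_siNT its lowest, median and highest levels were 50.4, 63.8 and 91.5 CPM, and in 4OHT_siSMARCA4 they were 68.7, 89.8 and 140.5 CPM. Every 4OHT library lay above every DMSO_siNT library. Because no DMSO_siNT library exceeded 3 counts, the change is a bound: against 3 counts per library, mean IL1A was at least 274-fold higher in 4OHT_siNT and at least 391-fold higher in 4OHT_siSMARCA4 (edgeR adjusted p = 2.97e-13 and 9.75e-14).

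IL1B (chr2:112829751-112836816, minus strand, 7 exons) had levels of 0.357, 0.693 and 10.04 CPM as lowest, median and highest in DMSO_siNT, 783, 991 and 1458 CPM in 4OHT_siNT, and 589, 1079.6 and 2016 CPM in 4OHT_siSMARCA4. The DMSO_siNT libraries did not overlap with either 4OHT group. IL1B was higher by 8.88 ± 0.73 (log2, SE; edgeR adjusted p = 6.31e-09) in 4OHT_siNT and by 9.06 ± 0.74 in 4OHT_siSMARCA4 (adjusted p = 4.26e-09) than in DMSO_siNT. The highest DMSO_siNT value came from the library 4-2V, and without it the differences were 10.2 and 10.4. Within VM sets alone they were 11.0 and 10.3.

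Compared per kilobase of the canonical transcript, IL1B stood above the other 9 genes in both senescent groups. It was at 671 ± 158 CPM per kb (SD, n = 6) in 4OHT_siNT, followed by IL1A at 33.4 ± 7.05 and IL1R1 at 10.4 ± 0.951, and these 3 ranges did not overlap. CASP1 (1.99 ± 0.659 CPM per kb) and IL1RAP (1.74 ± 0.264) came next and overlapped each other. In DMSO_siNT the order began with CASP1 (11.9 ± 8.56 CPM per kb) and IL1R1 (8.12 ± 2.93), which overlapped, and IL1B was at 1.58 ± 2.53.

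**Figure D1:**
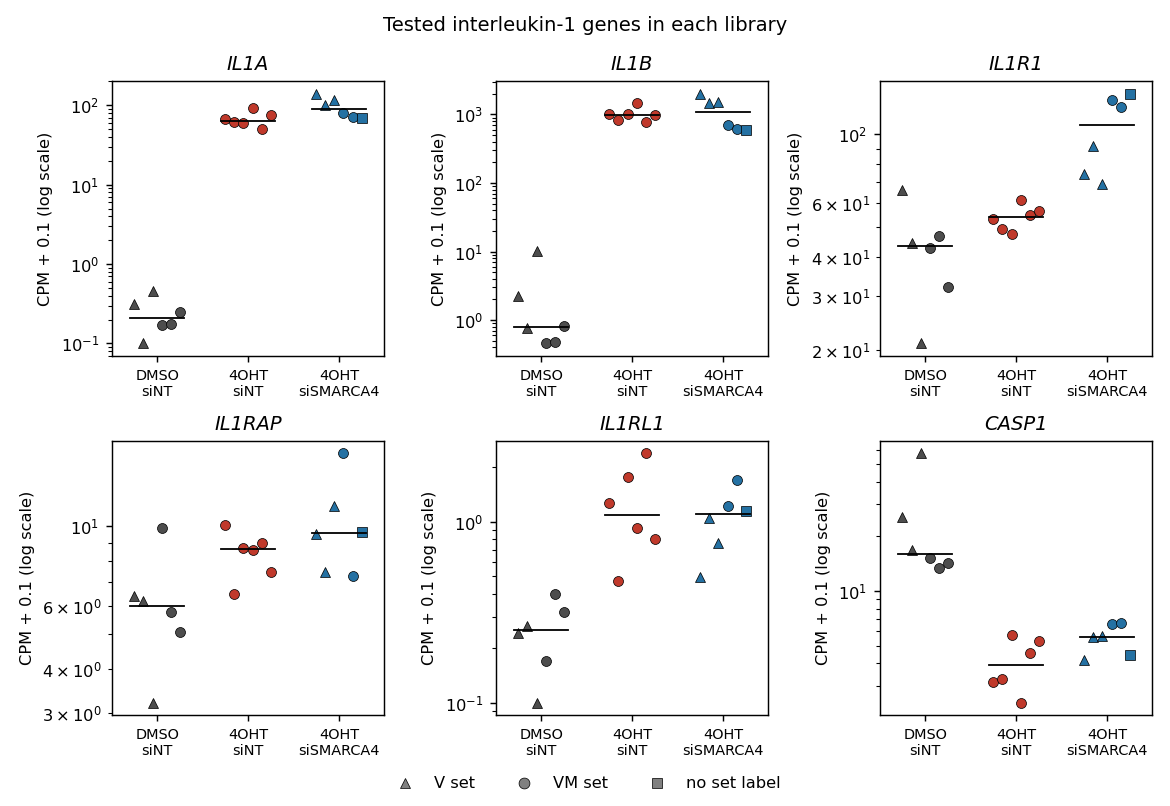
Levels of the 6 tested interleukin-1 genes in each of the 18 libraries, as CPM + 0.1 on a log axis, by group, with triangles for V sets, circles for VM sets, a square for the library without a set label and a line at the group median. IL1A and IL1B lie far above DMSO_siNT in both 4OHT groups, CASP1 lies below it, and IL1R1 lies above 4OHT_siNT in all 6 knockdown libraries.

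SMARCA4 knockdown did not shift IL1A or IL1B beyond the threshold when all libraries were compared. In 4OHT_siSMARCA4 over 4OHT_siNT, IL1A differed by 0.51 ± 0.19 (log2, SE; edgeR adjusted p = 0.10) and IL1B by 0.18 ± 0.50 (adjusted p = 0.871), and for both genes the groups overlapped. The set letters split the knockdown libraries. For IL1B, the V libraries had 2016, 1467 and 1507 CPM, the VM libraries 692 and 604 CPM, and the unlabelled one 589 CPM. All V values lay above the 4OHT_siNT range and the other 3 lay below it. Within VM sets, the only letters shared with 4OHT_siNT, IL1B was lower by −0.66 (log2) in the knockdown and was called (adjusted p = 0.0263), while IL1A differed by 0.13 and was not called. For IL1A after knockdown, V sets gave 140.5, 101 and 118 CPM, VM sets 78.7 and 70.4 CPM, and the library without a set label 68.7 CPM. The V values were above the highest 4OHT_siNT library, at 91.5 CPM, and the others fell inside its range. Within VM sets 21% of 13615 genes were called in this comparison, so 1 higher (IL1R1) and 1 lower (IL1B) of the 6 genes tested with all libraries is read against that share. IL33 was also tested in the VM fit and was not called (−1.40, edgeR adjusted p = 0.366). IL1A was called when DMSO_siNT 4-2V was left out of the fit (0.51, adjusted p = 0.034), in a fit of these 2 groups only (0.51, adjusted p = 0.0406) and for knockdown siRNA 4 against all controls (0.73, adjusted p = 0.0497).

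The ratio of IL1B to IL1A within a library does not depend on scaling. With 0.5 added to both counts, it was 13.2, 15.3 and 16.6 IL1B counts per IL1A count as lowest, median and highest in 4OHT_siNT. After knockdown the V libraries gave ratios of 14.3, 14.5 and 12.8, the VM libraries 8.79 and 8.57, and the unlabelled one 8.58. The V libraries overlapped with 4OHT_siNT, and the other 3 lay below all of its libraries. The mean log2 ratio was lower by −0.45 in the knockdown (exact permutation test, two-sided, n = 6 and 6, p = 0.0238; adjusted over 2 ratios 0.0476), with VM sets alone at −0.79 and V knockdown libraries at −0.11 against the same controls. Leaving out 1 library in turn gave adjusted p-values from 0.0346 to 0.0952, and 7 of the 12 libraries ended the call when left out (4OHT_siNT 2-2VM, 4-2VM and 2-3VM, and 4OHT_siSMARCA4 4-3V, 4-2VM, 2-3VM and the unlabelled library).

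**Figure D2:**
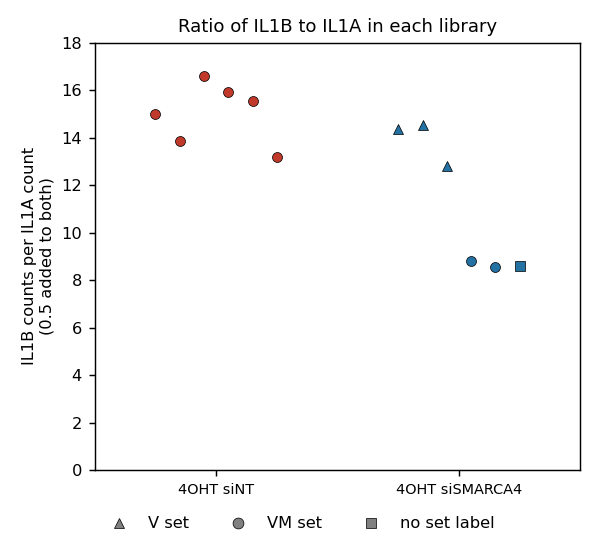
IL1B counts per IL1A count in each 4OHT library (0.5 added to both counts), by group and set letters. The 6 control libraries lie between 13.2 and 16.6, the V knockdown libraries between 12.8 and 14.5, and the VM and unlabelled knockdown libraries between 8.57 and 8.79.

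Between V and VM knockdown libraries no gene of the 7 tested in the set-letter fit was called, where 0.101% of 13887 genes were (14 genes; 1132 had an unadjusted p under 0.05). At an unadjusted p under 0.05 were 4 of them, with V over VM at 1.35 ± 0.55 (log2, SE) for IL1B, 0.67 ± 0.26 for IL1A, −0.69 ± 0.30 for IL1R1 and 2.21 ± 1.03 for IL33 (edgeR adjusted p = 0.512, 0.473, 0.556 and 0.600). When DMSO_siNT 4-2V was left out of that fit, IL1B was called higher in V libraries (1.37 ± 0.25, adjusted p = 0.0101), 1 of the 7 genes where 1.62% of 13806 genes were called (223 genes), and IL1R1 was at −0.67 (adjusted p = 0.0538). SMARCA4 itself was 92.7 to 141 CPM in the V and 70.4 to 87.0 CPM in the VM knockdown libraries, and its part in these differences was not tested.

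Within DMSO_siNT, IL1B was at 2.14, 0.659 and 10.04 CPM in the V libraries and at 0.357, 0.373 and 0.728 CPM in the VM libraries, where the highest value was that of 4-2V. V over VM was 3.00 ± 0.72 (log2, SE) for IL1B (edgeR adjusted p = 0.080) and 1.19 ± 0.35 for CASP1 (adjusted p = 0.151). Without 4-2V these were 1.53 ± 0.59 (adjusted p = 0.265) and 0.55 ± 0.25 (adjusted p = 0.353). None of the 7 genes was called there, where 0.324% of genes were (45 genes; 2217 at an unadjusted p under 0.05, 2 of them among these 7). With the siRNA number as a covariate IL1B was called (3.07, adjusted p = 0.0307), and without 4-2V it was not (1.70, adjusted p = 0.147).

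The type 1 receptor was the 1 gene of the 6 tested that knockdown changed with all libraries in the fit. IL1R1 (chr2:102064544-102179874, plus strand, 12 exons) had levels of 20.9, 43.5 and 66.05 CPM as lowest, median and highest in DMSO_siNT and 47.5, 54 and 61.3 CPM in 4OHT_siNT, 2 groups that overlapped. After knockdown the V libraries had 74.1, 91.9 and 68.9 CPM, the VM libraries 129 and 122 CPM, and the unlabelled one 136 CPM. All 6 knockdown libraries lay above all 12 others. IL1R1 rose by 0.95 ± 0.21 (log2, SE), or 1.93-fold, over 4OHT_siNT (edgeR adjusted p = 0.00733). Of all 13136 genes tested, 10.6% were called in this comparison, 4.99% higher and 5.65% lower, and of the 6 interleukin-1 genes 1 was higher and 0 lower by edgeR. At an unadjusted p under 0.05, 2 were higher and 0 lower, and DESeq2 called 1 and 0. Within VM sets the rise was 1.21 (adjusted p = 1.89e-05), and it was called in each of the 18 fits that left out 1 library (0.85 to 1.04). By siRNA, each against the control siRNA of that number, the rise was 1.17 with number 2 (adjusted p = 0.0159). It was 0.69 with number 4 (adjusted p = 0.193, where 2.71% of genes were called). The difference between the siRNAs, 0.48 ± 0.39, did not pass the test (adjusted p = 0.896). Of the knockdown libraries, siRNA 4 had 4-2V, 4-3V and 4-2VM, and siRNA 2 had 2-3V, 2-3VM and the unlabelled one. Number and set letters were therefore not balanced, and their parts in this difference were not tested. IL1R1 was higher by 1.30 ± 0.22 in 4OHT_siSMARCA4 than in DMSO_siNT (adjusted p = 4.88e-05), by 0.84 in V and 1.64 in VM sets (difference −0.80 ± 0.41, adjusted p = 0.547). In 4OHT_siNT over DMSO_siNT it differed by 0.35 ± 0.21 (adjusted p = 0.178). That difference was called within VM sets (0.41, adjusted p = 0.00779) and without DMSO_siNT 2-1V (0.53, adjusted p = 0.0383). IL1R1-AS1 overlaps IL1R1 on the other strand, and whether the counting used strand is not given in the sources used here. In bulk RNA, a change in the number of cells with a transcript and a change in RNA per cell cannot be told apart, here and for the other genes.

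**Figure D3:**
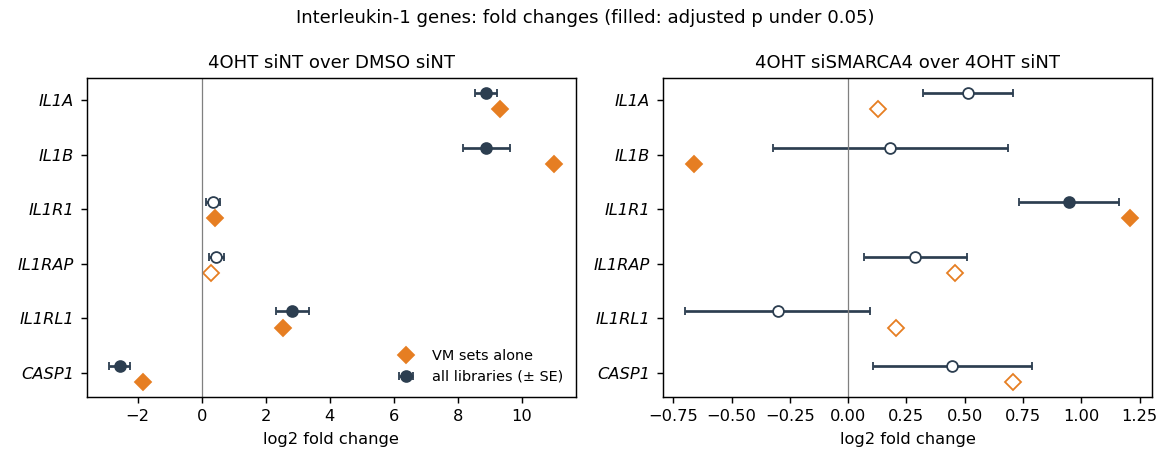
Log2 fold changes of the 6 tested genes for senescence (left) and for SMARCA4 knockdown in senescent cells (right), with all libraries (circles, bars are ± 1 SE) and VM sets alone (diamonds), filled where the edgeR adjusted p was under 0.05. IL1R1 is called higher after knockdown in both, at 0.95 and 1.21, whereas IL1B is at 0.18 with all libraries and at −0.66 in VM sets.

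IL1RAP, the signalling partner of the receptor (chr3:190514051-190659750, plus strand), was at 3.11, 5.88 and 9.78 CPM as lowest, median and highest in DMSO_siNT, 6.38, 8.52 and 9.98 CPM in 4OHT_siNT and 7.17, 9.48 and 15.9 CPM in 4OHT_siSMARCA4. All 3 groups overlapped. It was higher in 4OHT_siSMARCA4 than in DMSO_siNT by 0.74 ± 0.23 (log2, SE; edgeR adjusted p = 0.00959). VM sets alone gave 0.74 with adjusted p = 0.0677, and siRNA 2 alone gave 0.13. In 4OHT_siNT over DMSO_siNT the difference was 0.46 ± 0.23 (adjusted p = 0.0966), and without DMSO_siNT 2-2VM it was 0.66 and called (adjusted p = 0.0142). The knockdown added 0.29 ± 0.22 (adjusted p = 0.461).

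IL1RL1, the interleukin-33 receptor (chr2:102311502-102352037, plus strand), was low throughout. Its lowest, median and highest levels were 0, 0.154 and 0.298 CPM in DMSO_siNT, 0.371, 0.992 and 2.29 CPM in 4OHT_siNT and 0.393, 0.998 and 1.59 CPM in 4OHT_siSMARCA4. Both 4OHT groups lay above DMSO_siNT without overlap, though the nearest libraries had 4 counts (DMSO_siNT 4-2VM) and 5 counts (4OHT_siNT 4-1VM). IL1RL1 rose by 2.82 ± 0.52 (log2, SE; edgeR adjusted p = 0.000137) in 4OHT_siNT and by 2.52 ± 0.53 in 4OHT_siSMARCA4 (adjusted p = 0.000527) over DMSO_siNT, from 12 counts in all 6 DMSO_siNT libraries to 97 and 73. It passed the filter through its 4OHT libraries. In a fit of either 4OHT group with DMSO_siNT only, it was below the filter and not tested. Between the 4OHT groups it differed by −0.30 ± 0.40 (adjusted p = 0.698). Its locus overlaps IL18R1 on the same strand, so reads of the 2 genes could be shared.

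CASP1, which encodes the protease that matures interleukin-1 beta (chr11:105025397-105035250, minus strand, 9 exons), moved opposite to the agonists. Its lowest, median and highest levels were 13.4, 15.9 and 57.4 CPM in DMSO_siNT, 2.32, 3.81 and 5.60 CPM in 4OHT_siNT and 4.09, 5.52 and 6.61 CPM in 4OHT_siSMARCA4. Every DMSO_siNT library lay above every 4OHT library. CASP1 fell by 2.56 ± 0.34 (log2, SE; edgeR adjusted p = 3.13e-06) in 4OHT_siNT and by 2.12 ± 0.33 in 4OHT_siSMARCA4 (adjusted p = 2.22e-05) from DMSO_siNT. The highest value was that of DMSO_siNT 4-2V. Without it the differences were −2.09 and −1.65, and within VM sets alone they were −1.84 and −1.13. The knockdown difference from 4OHT_siNT was 0.45 ± 0.34 (adjusted p = 0.452). CASP1 and its neighbour CARD16 share near-identical sequence, so that reads could be split between them, and CARD16 fell by 2.32 ± 0.36 in the same comparison (adjusted p = 1.99e-05).

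Of the 6 genes tested in 4OHT_siNT over DMSO_siNT, 3 were higher (IL1A, IL1B and IL1RL1) and 1 lower (CASP1), where 52.8% of 13136 genes were called, 23.9% higher and 28.9% lower. IL1A, IL1B and IL1RL1 had 10, 142 and 12 counts over all DMSO_siNT libraries and passed the filter through their 4OHT libraries. The counts of higher genes over DMSO_siNT are therefore not separate support for their rise. Within VM sets 4 of the same 6 were higher, with IL1R1 added, and 1 lower, where 53.5% of genes were called. With siRNA 4 alone 5 of the 6 were higher, with IL1R1 and IL1RAP added, and 1 lower, where 52.1% of genes were called. The siRNA 4 libraries included DMSO_siNT 4-2V, which had the lowest IL1R1 and IL1RAP of its group. With siRNA 2 alone 3 were higher and 1 lower, where 5084 of 13659 genes were called. There IL1R1 was at 0.037 and IL1RAP at 0.32 (edgeR adjusted p = 0.935 and 0.335). IL33 passed the filter in the VM and siRNA fits. It was called higher within VM sets (2.98, edgeR adjusted p = 0.0321) and with siRNA 4 (3.598, adjusted p = 0.0035), and not with siRNA 2 (1.92, adjusted p = 0.275). With 0 to 2 counts in each DMSO_siNT library, it passed only through its 4OHT libraries, so these calls are not separate support for a rise. In 4OHT_siSMARCA4 over DMSO_siNT, 5 were higher and 1 lower, where 50.5% of genes were called, 23.3% higher and 27.3% lower. The test of this comparison in V against VM sets called none of the 7 genes in its fit, where 0.0864% of genes were called (12 genes; 1338 at an unadjusted p under 0.05), and CASP1 was the 1 gene of these at an unadjusted p under 0.05 (−1.58 ± 0.55, edgeR adjusted p = 0.372). Without DMSO_siNT 4-2V none was called either, with CASP1 at −0.92 (adjusted p = 0.387) and IL1R1 at −1.10 (adjusted p = 0.0533). The 3 comparisons share their libraries pairwise.

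The remaining 4 genes were below the filter on low counts. IL1RN, the antagonist (chr2:113099315-113134016, plus strand), had 1 count in all 6 DMSO_siNT libraries, 7 counts in 4OHT_siNT and 3 counts in 4OHT_siSMARCA4. The same libraries held 152, 89690 and 103587 counts of IL1A and IL1B together. No library had more than 3 counts of IL1RN. The difference in the log2 ratio of IL1RN to the agonist sum between knockdown and 4OHT_siNT was −0.73 (exact permutation test, two-sided, p = 0.162; adjusted 0.162), and with counts of 0 to 3 it depends on the 0.5 counts added. IL1R2, the decoy receptor (chr2:101991960-102028544, plus strand), had 0 counts in DMSO_siNT, which allows up to 3 counts or 0.246 CPM per library, 5 counts in 4OHT_siNT and 6 counts in 4OHT_siSMARCA4. No difference in these 2 inhibitors was detectable at this depth.

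IL18 (chr11:112143253-112164096, minus strand) had 3, 4, 0, 1, 3 and 9 counts in the 6 DMSO_siNT libraries, 1 count in all of 4OHT_siNT and 0 counts in 4OHT_siSMARCA4, which allows up to 0.232 CPM per library. These ranges met at 0 counts, the DMSO_siNT mean leaned on the library 4-3VM with its 9 counts, and no fold is given. IL33 (chr9:6215786-6257983, plus strand) had 3 counts over all DMSO_siNT libraries, 37 counts in 4OHT_siNT (1, 12, 2, 13, 2 and 7) and 40 counts in 4OHT_siSMARCA4 (17, 6, 12, 3, 1 and 1). Against 3 counts per library, the means of the 4OHT groups were at least 1.82-fold and 1.92-fold higher. The lowest library of each 4OHT group was at 0.296 and 0.324 times that level, and the groups overlapped. In a fit with no filter over 22201 genes, IL18 was lower and IL33 higher in 4OHT_siNT than in DMSO_siNT (edgeR adjusted p = 0.00569 and 0.00725, where 33.2% of genes were called), and likewise in 4OHT_siSMARCA4 (adjusted p = 0.0018 and 0.00498, where 32.4% were called). Without DMSO_siNT 4-3VM, IL18 was called in both (adjusted p = 0.0196 and 0.00531). IL1RN and IL1R2 were not called in either.

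**Figure D4:**
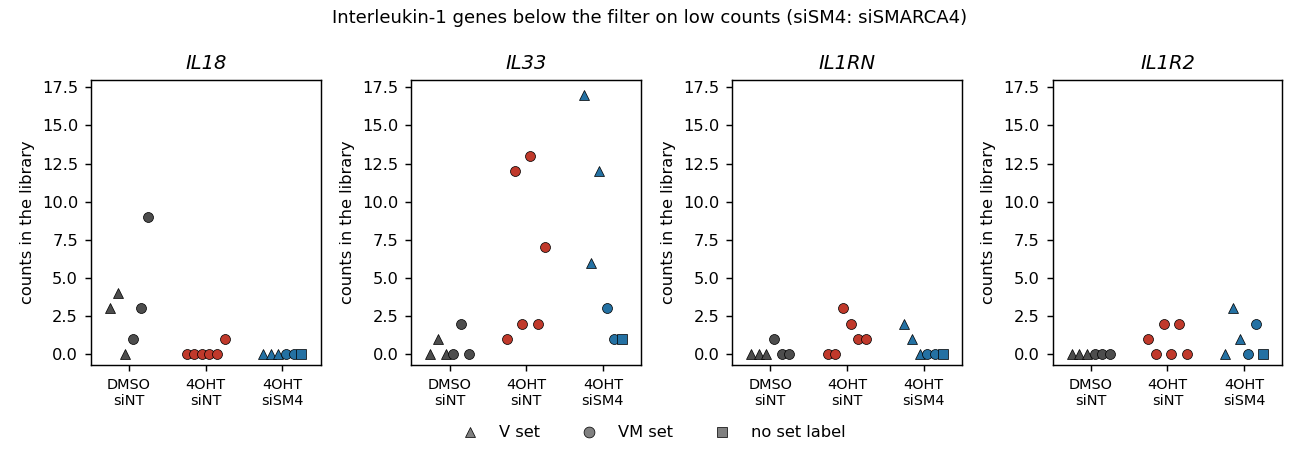
Counts of the 4 genes below the filter in each library, by group and set letters (triangles V, circles VM, square without a set label). IL18 counts reach 9 in DMSO_siNT and 1 in the 4OHT groups, IL33 counts reach 17 in the 4OHT groups, and IL1RN and IL1R2 do not exceed 3 counts in any library.

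The numbered siRNAs were compared within each group. Between siRNA 2 and siRNA 4 none of the 7 genes in that fit was called in 4OHT_siNT, where 0.0732% of 13659 genes were (10 genes; 1447 at an unadjusted p under 0.05), or in 4OHT_siSMARCA4, where 0.00732% were (1 gene; 878 at an unadjusted p under 0.05). None was called in DMSO_siNT, where 0.0512% were (7 genes; 3872 at an unadjusted p under 0.05). In each of the 3 groups, 2 of the 7 genes had an unadjusted p under 0.05. In DMSO_siNT these were IL1R1, at 0.61 ± 0.28 (log2, SE) for siRNA 2 over siRNA 4, and IL1RAP, at 0.66 ± 0.26 (edgeR adjusted p = 0.167 and 0.117). Without 4-2V, a siRNA 4 library, they were 0.37 and 0.47 (adjusted p = 0.442 and 0.33), and 2410 genes had an unadjusted p under 0.05.

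The rest of the pathway was read from lists of its genes. Of 16 transcripts known to be induced by interleukin-1 in fibroblasts, all 16 were tested and all 16 were higher in 4OHT_siNT than in DMSO_siNT, with a median log2 fold change of 4.04 against −0.05 over all genes, of which 23.9% were higher. CSF3, a granulocyte growth factor, rose by 9.79 ± 0.59 (log2, SE), CCL20, a chemokine, by 8.13 ± 0.58, and CXCL1, a neutrophil chemokine, by 8.09 ± 0.57 (edgeR adjusted p = 7.42e-11, 8.03e-10 and 6.90e-10). All DMSO_siNT libraries together held 6 counts of CSF3, 5 of CCL20 and 59 of CXCL1. CSF3 and CCL20 thus passed the filter through their 4OHT libraries, and the size of their folds is uncertain. After knockdown, 7 of the 16 were higher than in 4OHT_siNT by edgeR (10 at an unadjusted p under 0.05, and 9 by DESeq2) and none was lower by any of these, with a median of 1.01 against 0.01 over all genes, of which 4.99% were higher. The largest rises were in BIRC3, an inhibitor of apoptosis (1.86 ± 0.19, adjusted p = 7.30e-06), PTGS2, the inducible cyclooxygenase (1.61 ± 0.15, adjusted p = 4.10e-06), and CXCL2, a neutrophil chemokine (1.57 ± 0.23, adjusted p = 0.000279). Within VM sets 8 of the 16 were higher and none lower, where 21% of genes were called in either direction. Their median was 0.42, and BIRC3, PTGS2 and CXCL2 were at 1.83, 1.43 and 1.18. Several of these genes are also members of the secretory phenotype that the study examined in these samples, so the list is not independent evidence of its direction.

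Of 13 adaptor and kinase genes that pass the signal on from the receptor, all were tested. With 4OHT, 6 were higher and 2 lower, with a median of 0.24, where 52.8% of all genes were called, so the share of the list called was near that of all genes. IRAK2, a kinase of the receptor complex, rose by 2.25 ± 0.11 (log2, SE; edgeR adjusted p = 4.33e-12), PELI1, a ubiquitin ligase, by 1.66 ± 0.15 (adjusted p = 1.85e-08), and IRAK4, the kinase that starts the cascade, fell by 1.58 ± 0.12 (adjusted p = 1.36e-09). After knockdown 1 of the 13, IRAK2, passed the test (0.54 ± 0.10, adjusted p = 0.00215), the median was −0.01, and within VM sets 2 were higher and 2 lower. In that comparison 10.6% of all genes were called with all libraries and 21% within VM sets. Of 7 other receptors and binding proteins 4 were tested. With 4OHT, IL1RAPL1, a receptor homologue known from neurons, rose by 2.09 ± 0.15 (adjusted p = 1.18e-09) and IL18R1, the interleukin-18 receptor, by 1.59 ± 0.36 (adjusted p = 0.000997), while SIGIRR, a negative regulator, fell by 1.23 ± 0.29 (adjusted p = 0.00141), and the median was 1.10. Within VM sets IL1RAPL1, IL18R1 and SIGIRR were at 2.06, 1.61 and −0.73. After knockdown IL18R1 was higher again (1.10 ± 0.32, adjusted p = 0.0293) and IL1RAPL1 fell by 0.56 ± 0.14 (adjusted p = 0.0157), with a median of 0.33.

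Of 18 inflammasome and processing genes 11 were tested, with a median of −0.18 for 4OHT. CARD16 fell as given above, PYCARD, the inflammasome adaptor, fell by 1.38 ± 0.35 (log2, SE; edgeR adjusted p = 0.00282), and GSDMD, the pore-forming gasdermin, fell by 1.28 ± 0.30 (adjusted p = 0.00136). CASP4, a caspase that senses bacterial lipopolysaccharide, rose by 1.21 ± 0.13 (adjusted p = 3.63e-07). These were the 4 calls among the 11, where 52.8% of all genes were called. Within VM sets 2 were higher and 5 lower, where 53.5% of genes were called. There the falls were smaller, at −1.63 for CARD16, −0.67 for PYCARD and −0.60 for GSDMD, and CASP4 was at 1.22. After knockdown none of the 11 was called by edgeR or DESeq2 (2 higher and 0 lower at an unadjusted p under 0.05), with a median of −0.09. Within VM sets 1 was higher and 1 lower, where 21% of genes were called. None of 6 other ligands of the family, among them the interleukin-36 genes, passed the filter, and their summed level was at most 1.12 CPM in any library.

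**Figure D5:**
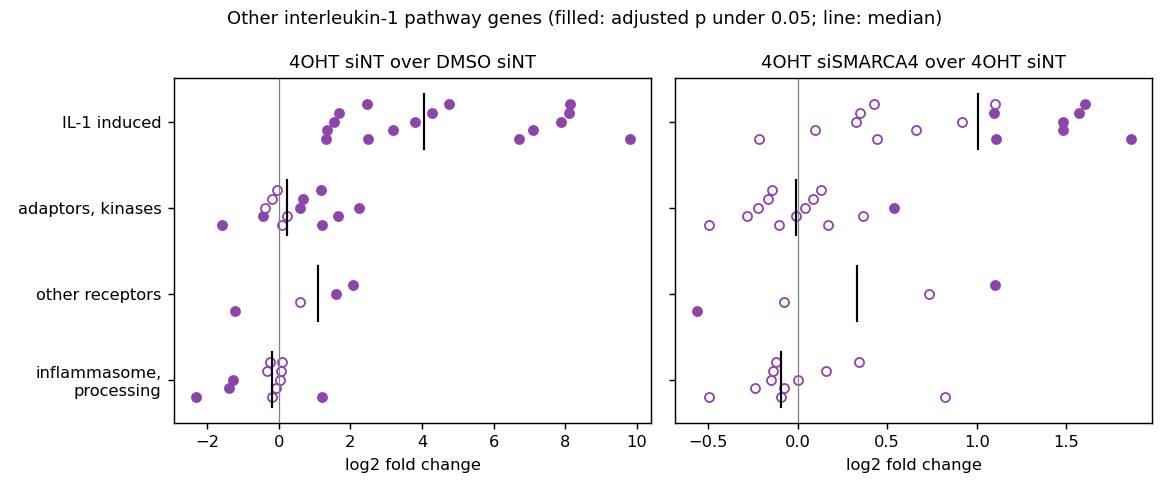
Log2 fold changes of the tested genes of 4 lists of the pathway for senescence (left) and for SMARCA4 knockdown in senescent cells (right), one point a gene, filled where the edgeR adjusted p was under 0.05, with a line at the median. The 16 transcripts induced by interleukin-1 are all higher in senescence, with a median of 4.04, and the other lists have medians from −0.18 to 1.10.

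Over the 12 libraries with 4OHT, the genes whose log2 CPM followed IL1A most closely were NFKBIZ (Pearson r = 0.964), GK (0.952) and GFPT2 (0.944), among 11509 genes. For IL1B they were IVNS1ABP (0.958), SLC25A37 (0.949) and ZC3H12A (0.948), and IL1A with IL1B gave 0.777. These are descriptions over libraries that share group, set letters and scaling.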

How the data were processed

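Polyadenylated RNA of 18 libraries was sequenced by the authors with a strand-specific kit and aligned to hg38 with STAR 2.7.8a; the submitters' processing notes also name DESeq2 1.36.0. The counting program, annotation and use of strand are not given in the sources used here. The authors deposited counts of reads for each gene without normalization, 1 column per library and lane (36 columns), and lanes were summed. Of 29 labelled samples 17 matched a column and the other 12 were not analysed here. A column named 4OHT_siSMARCA4, siRNA 2 with set 1VM matched no title and is the unlabelled library. Whether libraries came from separate cultures is not stated, so p-values measure the spread between these libraries.

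Genes were filtered with filterByExpr (minimum count 10; 13136 genes, 99.9% of counts), scaled by TMM and tested by quasi-likelihood in edgeR 4.0.16 (R 4.3.3), all libraries in 1 fit without covariates, called at a Benjamini-Hochberg adjusted p under 0.05; the common coefficient of variation was 23.3%. SE came from the F statistic. Set letters and siRNA numbers had fits of their own with 13887 and 13659 genes. As a covariate and in comparisons across groups, the siRNA number was used as the same label in all groups, though it names different siRNAs in control and knockdown. Ratios used 0.5 added counts and exact permutation (SciPy 1.17.1, Python 3.11.15). Where no library exceeded 3 counts, folds are bounds against 3 counts, which cover counting error only. Coordinates and lengths are from GENCODE 44 and upstream sequences from RefSeq, both on GRCh38. On simulated counts for 4OHT_siSMARCA4 over 4OHT_siNT (13136 genes), edgeR recovered 78% of 100 genes changed by 1 on the log2 scale and 99% of 100 changed by 2, with 6 false calls. The simulation held no difference between V and VM libraries, so these figures do not cover the uneven set letters of that comparison. Alternatives were other scaling (DESeq2 size factors), DESeq2 1.42.0, no filter, the set name as a replicate block, VM sets alone, 2 groups alone, each siRNA alone, robust fitting, a 2-fold limit and leaving out each library. VM sets with the unlabelled library, V sets alone, the ratio with a library left out, the set-letter and siRNA fits without DMSO_siNT 4-2V and the no-filter fit without DMSO_siNT 4-3VM were chosen after seeing the data. All 10 members are named, with at most 3 called genes per list and comparison by size of change, and 3 most alike genes each for IL1A and IL1B. The members and lists were chosen with earlier results of these data known.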

Additional observations from a re-analysis of the deposited data

How the results depend on the processing

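Depth limited IL1RN, IL1R2, IL18 and IL33, which had too few counts for the filter. Leaving out 1 library moved IL1B most in the comparisons with DMSO_siNT, through DMSO_siNT 4-2V. 4OHT_siNT held VM libraries only among those analysed, so knockdown differences in all libraries set V and VM libraries against VM controls, and set letters cannot be told apart from the group there. Of 4OHT_siNT over DMSO_siNT, members called higher were 5 with siRNA 4 alone, counted over the 6 genes tested with all libraries (3 there). Of 4OHT_siSMARCA4 over 4OHT_siNT, members called higher (1) were 2 in a fit of these 2 groups only, 0 with siRNA 4 alone, 0 with a 2-fold limit as well, and 1 to 2 when each library was left out; members called lower (0) were 1 in VM sets alone and 1 with the unlabelled library added. The V over VM comparison in DMSO_siNT called 1 member with siRNA as covariate, and that in 4OHT_siSMARCA4 called 1 (IL1B) without DMSO_siNT 4-2V, with or without that covariate. Leaving out each library gave −0.53 to −0.38 for the log2 ratio of IL1B to IL1A and −1.01 to −0.46 for that of IL1RN to the agonists, where 4OHT_siNT 2-1VM made the call (adjusted p = 0.0433).

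The sign of the IL1B difference in 4OHT_siSMARCA4 over 4OHT_siNT (0.18) was negative with VM sets (−0.66), VM sets and the unlabelled library (−0.70), siRNA 2 (−0.067), knockdown siRNA 2 against all controls (−0.18), without 4OHT_siSMARCA4 4-2V (−0.070, up to 0.30 without other libraries) and with the set name as a replicate block (−0.94, adjusted p = 0.535). In the same comparison IL1RAP was −0.19 with siRNA 2 and −0.037 with knockdown siRNA 2 against all controls. IL1RL1 was 0.20 in VM sets, 0.090 with the unlabelled library, 0.13 with siRNA 4 and 0.20 with knockdown siRNA 2 against all controls. With siRNA as covariate V over VM in DMSO_siNT was −0.0062 for IL1R1 and 0.15 for IL33 (1.24 without 4-2V as well), and the V against VM test of 4OHT_siSMARCA4 over DMSO_siNT was 0.27 for IL1RL1. Without 4-2V that test was 0.50 for IL1A and −0.13 for IL1RAP, and with the covariate as well 0.21, −0.10 and, for IL1RL1, 0.031. The cause of these changes was not tested.

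Genes called in 4OHT_siSMARCA4 over 4OHT_siNT (1397) were 236 with the block, 2858 in VM sets, 4064 with the unlabelled library added, 3405 with 2 groups, 370 with siRNA 4, 614 with knockdown siRNA 4 against all controls, 461 with a 2-fold limit, and 3269, 931 and 923 without DMSO_siNT 4-2V, 4OHT_siSMARCA4 2-3VM and the unlabelled library. In 4OHT_siNT over DMSO_siNT (6935) they were 4356 with the block and 2822 with the 2-fold limit, and in 4OHT_siSMARCA4 over DMSO_siNT (6635) 2820 with that limit. The deviations of same-named sets from their group means correlated by −0.28 to −0.03 for sets 2V and 2VM and by 0.16 to 0.23 for set 3VM, over 11514 genes, so the set name was not taken to pair libraries. With the block IL1R1 was 1.09 (adjusted p = 0.0366) in 4OHT_siSMARCA4 over 4OHT_siNT.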

Other observations

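In the 4OHT groups, counts of interleukin-33 and of its receptor gene differed by siRNA number in opposite directions, without passing the test. Control and knockdown siRNAs of the same number are different siRNAs, so the knockdown group is not a repeat of the control group. IL33 counts in 4OHT_siNT were 1, 2 and 2 with siRNA 2 and 12, 13 and 7 with siRNA 4, and in 4OHT_siSMARCA4 they were 6, 1 and 1 with siRNA 2 and 17, 12 and 3 with siRNA 4. The difference of siRNA 2 from siRNA 4 was −2.61 ± 0.75 (log2, SE; edgeR adjusted p = 0.197) and −1.76 ± 0.70 (adjusted p = 0.677). In 4OHT_siSMARCA4, siRNA 4 had the libraries 4-2V, 4-3V and 4-2VM, and siRNA 2 had 2-3V, 2-3VM and the unlabelled one. By set letters, IL33 counts there were 17, 6 and 12 in V libraries and 3, 1 and 1 in the others. Number and set letters were not balanced in that group, and their parts were not tested. IL1RL1 counts in 4OHT_siNT were 16, 24 and 31 with siRNA 2 and 5, 12 and 9 with siRNA 4, a difference of 1.41 ± 0.46 (adjusted p = 0.260), and in 4OHT_siSMARCA4 they were 12, 20 and 13 against 7, 8 and 13, a difference of 0.78 ± 0.48 (adjusted p = 0.830). In DMSO_siNT, with 2, 2 and 1 IL1RL1 counts against 0, 4 and 3, the difference went the other way, at −0.60 ± 0.82 (adjusted p = 0.635).

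Other genes of the pathway lists with few counts differed in group totals between DMSO_siNT and the 4OHT groups and were picked out after their values were seen. P2RX7, the ATP receptor that triggers inflammasome activation, had 129 counts over the DMSO_siNT libraries, 17 in 4OHT_siNT and 24 in 4OHT_siSMARCA4. NLRP3, the inflammasome sensor, had 4, 34 and 36 counts in the same order, and IL36RN, the interleukin-36 receptor antagonist, had 0, 22 and 36. These genes were below the filter and were not tested, and the group totals do not show how evenly the libraries shared the counts.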
